A study of Mus musculus with 2 samples.

Results

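The replication-dependent histone genes are the clustered genes that supply the bulk of the linker histone H1 and of the core histones H2A, H2B, H3 and H4. They were taken as every protein-coding gene of the GENCODE M21 annotation whose symbol begins with Hist1h, Hist2h, Hist3h or Hist4h, which gave 67 of the 21853 protein-coding genes. Of these, 54 belong to the Hist1 cluster on chromosome 13, 10 to Hist2 on chromosome 3, 2 to Hist3 on chromosome 11 and 1 to Hist4 on chromosome 6. By product there are 6 H1, 18 H2A, 18 H2B, 12 H3 and 13 H4 genes. The data are DNase-seq of nuclei from hippocampus (a layer that the labels do not name) of B6CASTF1/J males aged 2 months, an F1 cross of B6 and CAST mice, with reads of both parental alleles placed on a single assembly. There was 1 group of 2 replicates, taken from separate biosamples that carry the same donor entry, and no label says that they came from separate animals, so their spread may be partly technical. The labels give no treatment and no other condition, so all comparisons below are between sets of genes within the same libraries and none of them was tested over samples.

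DNase I cuts DNA where nucleosomes leave it exposed, so a promoter that recruits transcription factors in many cells gives a peak, and a factor that sits on its site leaves a footprint, a short stretch with fewer cuts inside the peak. Replication-dependent histone genes are mostly without introns, are transcribed mainly in S phase, and give mRNAs that end in a conserved stem-loop in place of a poly(A) tail. Their transcription depends on NPAT, which gathers at the clusters in histone locus bodies, and on factors that differ by type: HiNF-P for H4, Oct-1 for H2B, NF-Y at CCAAT boxes, and an element called the AC box for H1. Most cells of the adult hippocampus are neurons that no longer divide, with a small dividing population in the dentate gyrus.

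A promoter was called open where peaks of both replicates overlapped within 500 bp of a start, and the height of a promoter was the highest deposited peak value (signal, scaling not stated) in that window. For a gene with several annotated starts, the call and the height were taken over the windows of all of them. Replicate 1 had 132685 peaks and 255536 footprints and replicate 2 had 59880 and 111355, with the sequencing depth not given in the sources used here. Of 6 markers of excitatory hippocampal neurons, 4 had a shared promoter peak, led by Zbtb18 (5.63 in replicate 1 and 3.33 in replicate 2), Camk2a (3.67 and 2.73) and Nptx1 (3.36 and 3.001), while Zbtb20 (0.652) and Slc17a7 (1.32) had a peak in replicate 1 alone. None of 6 liver and muscle markers had a peak, and of 6 germ cell markers Dazl alone did, at 2.29 in replicate 1 and 1.43 in replicate 2. All 10 markers of dividing cells had a shared peak, including Mki67 at 2.25 and 1.03. Over all protein-coding genes 57.1% had a shared promoter peak. DNase-seq of a whole tissue cannot tell a promoter open in few cells from one weakly open in many.

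Of the 67 histone genes, 53 (79.1%) had an open promoter, against 57.1% of all protein-coding genes. By type the open promoters were 12 of 13 H4, 10 of 12 H3, 14 of 18 H2B, 13 of 18 H2A and 4 of 6 H1 genes. By cluster they were 42 of 54 in Hist1, 8 of 10 in Hist2, both in Hist3 and the sole gene of Hist4. The excess over all genes depended on how much the peaks of the replicates had to overlap: with 50% reciprocal overlap 28 histone genes (41.8%) were open, against 43.8% of all genes. The call with any overlap is used below.

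Open histone promoters were lower than the typical open gene, with height taken as the highest over all annotated starts. In replicate 1 their heights ran from 0.508 to 10.2 with a median of 3.10, where the median of all 12484 open genes was 4.06. In replicate 2 they ran from 0.602 to 6.05 with a median of 1.87, against 2.46. The difference of the medians was -0.39 on the log2 scale in replicate 1 and -0.40 in replicate 2. Only 9 of the 53 stood above the median of all open genes in both replicates, against 43.2% of all open genes, and 7 of those 9 were H4 genes. Of the 67 histone genes 4 had over 1 annotated start, whereas only 3608 of the 12484 open genes had a single one. The medians of all open genes thus drew on more windows per gene, and the part of this in the difference was not tested.

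**Figure D1:**
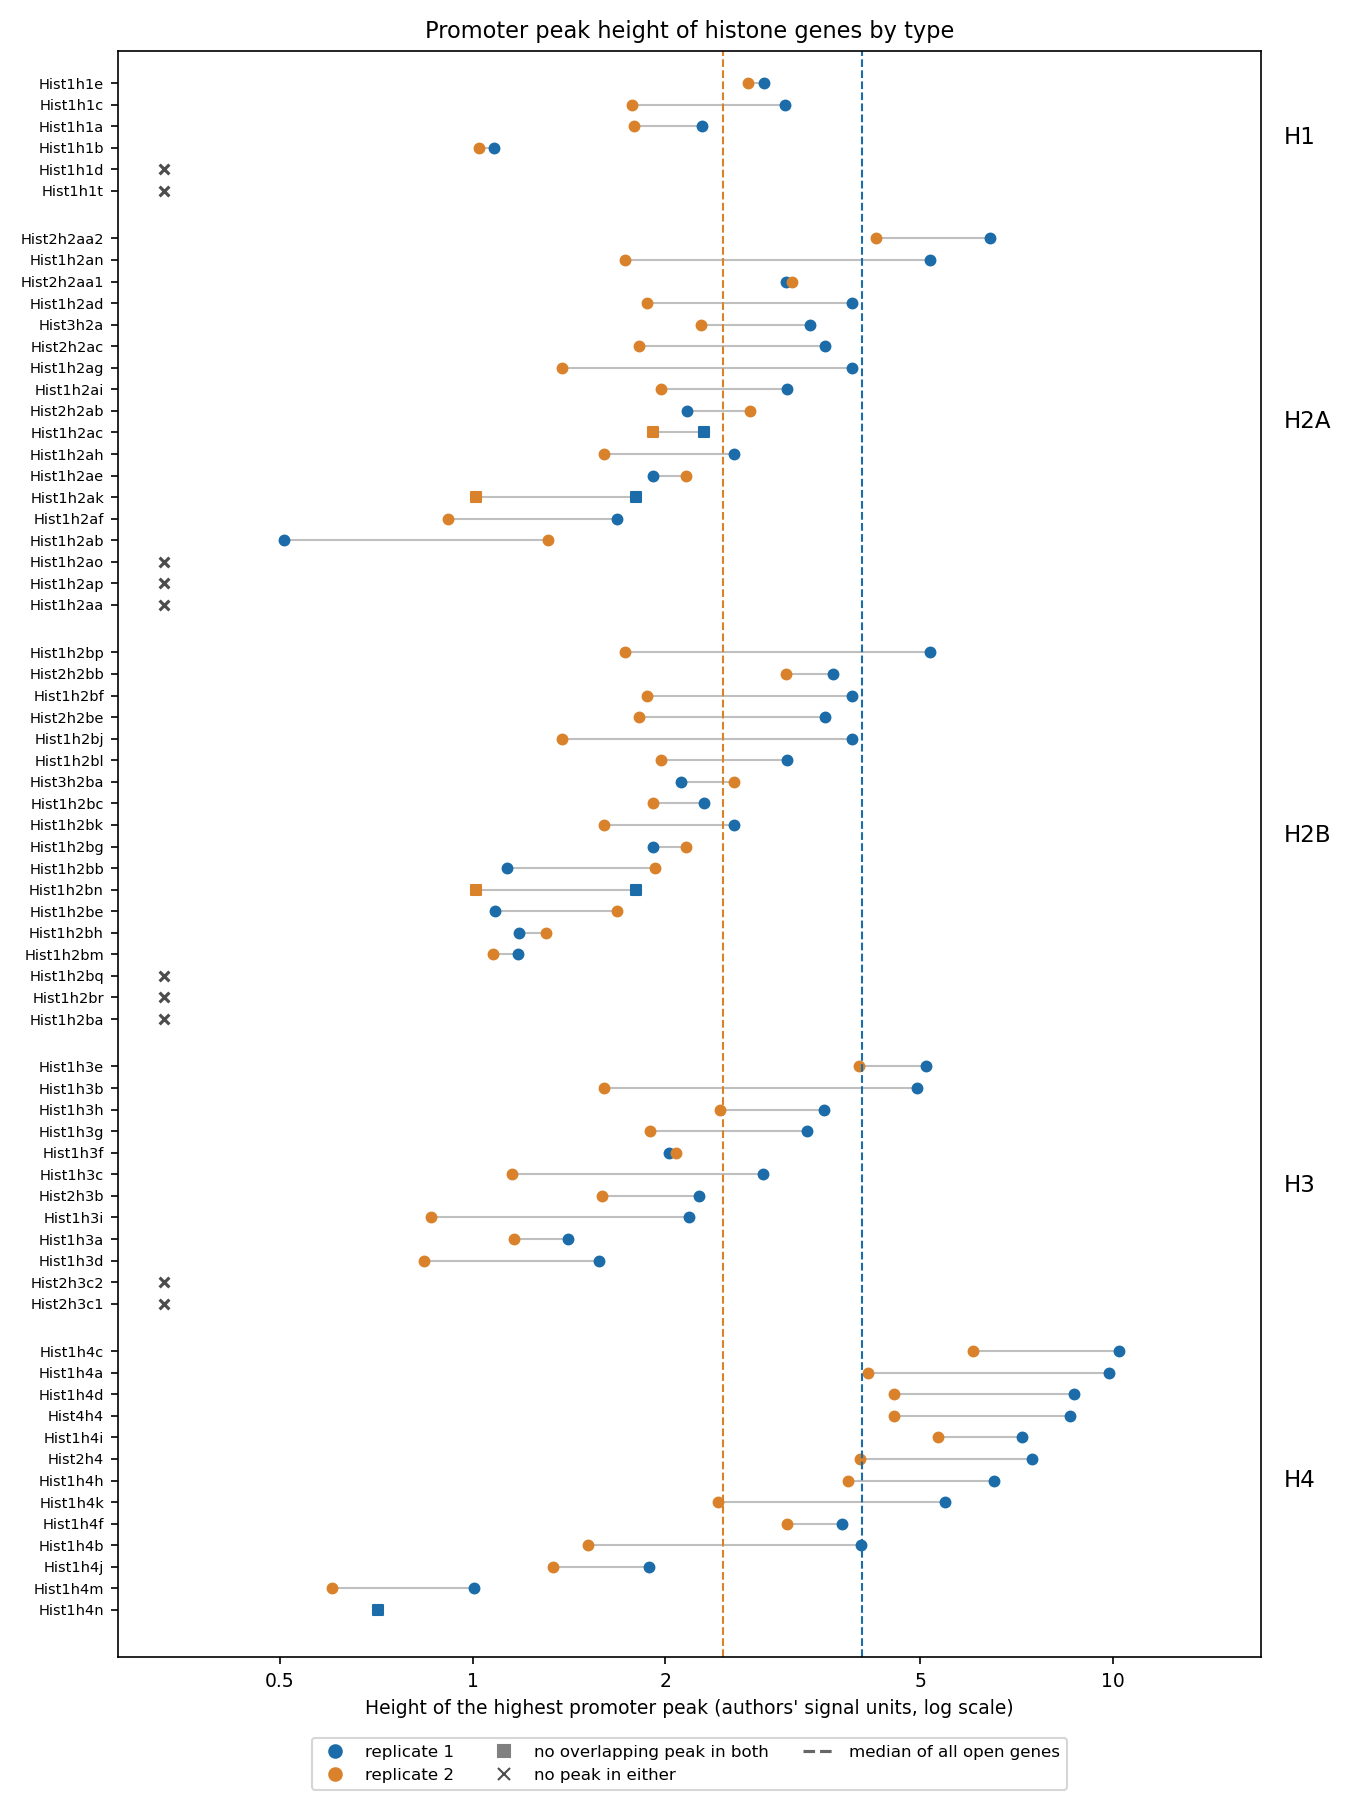
Height of the highest promoter peak of each of the 67 histone genes (x axis, the authors' signal units on a log scale), grouped by histone type, with replicate 1 in blue and replicate 2 in orange. Squares mark genes whose peaks were not shared, crosses at the left edge mark the 10 genes without a peak, and dashed lines mark the medians of all open genes, 4.06 and 2.46. The H4 genes reach the highest values in both replicates.

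H4 genes, which encode the partner of H3 in the nucleosome core, had the highest promoters. Hist1h4c had a height of 10.2 in replicate 1 and 6.05 in replicate 2, which placed it at the 97.7th and 99.4th percentile of all open genes. Hist1h4a followed with 9.85 and 4.14, Hist1h4d with 8.69 and 4.55, and Hist4h4, the lone gene of the Hist4 cluster, with 8.56 and 4.55. Hist1h4i stood at 7.20 and 5.32, Hist2h4 at 7.48 and 4.03, and Hist1h4h at 6.53 and 3.85. These 7 genes lie on chromosomes 3, 6 and 13. They were 7 of the 8 highest histone promoters in replicate 1, with Hist2h2aa2 as the other, while in replicate 2 the 8 highest held 6 H4 genes along with Hist2h2aa2 and Hist1h3e. The remaining open H4 promoters were lower: Hist1h4k had 5.47 and 2.42, Hist1h4f 3.77 and 3.10, Hist1h4b 4.04 and 1.52, Hist1h4j 1.89 and 1.33, and Hist1h4m 1.01 and 0.602. Open H4 genes thus ran from 1.01 to 10.2 in replicate 1 and from 0.602 to 6.05 in replicate 2, and other types from 0.508 to 6.42 and from 0.839 to 4.27. The median of the 12 open H4 promoters was 6.86 in replicate 1 and 3.94 in replicate 2, against 2.84 and 1.82 for the 41 open promoters of the other types, a difference of 1.27 and 1.12 on the log2 scale. This contrast of H4 with the other types was chosen after the values were seen, and it is a description of these 2 libraries.

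The letters GGTCCG, the core of the site that HiNF-P recognises in H4 promoters, were searched on both strands from 250 bases before to 50 bases after each gene's start. They were present in 12 of 13 H4 genes, against 9.59% of all protein-coding genes and 3 of the other 54 histone genes (Hist1h2bh, Hist1h3f and Hist1h3i). In all 12 the core lay upstream of the start codon, its centre between 52.5 and 82.5 bases from it. At 7 H4 genes a footprint covered at least 50% of the core in both replicates. The sequences below show that site in 6 of them, from the GRCm38 reference genome, read 5′ to 3′ in the direction of transcription. Capitals mark the bases inside overlapping footprints of the replicates (in either of them), so that the protected letters can be compared between genes.
Hist1h4c (minus strand, chr13:23698473-23698512): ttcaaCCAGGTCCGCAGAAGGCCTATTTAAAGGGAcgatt
Hist1h4d (plus strand, chr13:23581510-23581554): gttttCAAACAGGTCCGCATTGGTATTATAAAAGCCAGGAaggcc
Hist4h4 (minus strand, chr6:136804443-136804486): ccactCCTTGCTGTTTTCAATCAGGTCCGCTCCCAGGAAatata
Hist1h4i (minus strand, chr13:22041377-22041431): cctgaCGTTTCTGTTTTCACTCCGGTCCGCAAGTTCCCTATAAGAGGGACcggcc
Hist1h4h (plus strand, chr13:23531027-23531058): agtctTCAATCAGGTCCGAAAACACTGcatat
Hist1h4b (plus strand, chr13:23756928-23756959): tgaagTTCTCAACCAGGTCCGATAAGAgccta

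The seventh gene was Hist1h4k, where 2 adjoining footprints met inside the core. Hist2h4 and Hist1h4f had the core covered in replicate 1 but not in replicate 2, so in open H4 promoters 9 of 11 cores were covered in replicate 1 and 7 of 11 in replicate 2. Over all open promoters the same letters were covered at 16.9% of matches in replicate 1, 11.7% in replicate 2 and 5.83% in both. These shares were not matched for promoter height, and 8 of the 12 open H4 promoters stood above the median of all open genes in each replicate. Motifs were searched around each gene's 5′ end, while a gene counted as open at any annotated start. Over all genes 12484 were open at any start and 11506 at the 5′ end, and 53 histone genes were open either way. Shares of covered matches over all open promoters, here and below, thus include some stretches without a shared peak. Neither replicate had the core covered at Hist1h4j, Hist1h4m or Hist1h4n. These were the lowest H4 promoters, at 1.89 and 1.33 for Hist1h4j, 1.01 and 0.602 for Hist1h4m, and 0.711 in replicate 1 alone for Hist1h4n. For Hist1h4m and Hist1h4n, none of the words of 36 bases upstream of the start is found once in the assembly, and for Hist1h4j 77.2% are. The 3 other histone genes with these letters had no footprint on them. A covered match is a description of position, and no binding of HiNF-P was measured.

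Hist1h4a, with the second highest histone promoter in replicate 1 and the sixth highest in replicate 2, was the H4 gene without GGTCCG. Its promoter held the letters TGACGTCA, recognised by CREB-family factors, at 2 places, and both were covered in both replicates. The footprints around them are shown here, in capitals as above, followed by that of Hist1h4h, the other H4 gene with these letters.
Hist1h4a, distal (minus strand, chr13:23761322-23761356): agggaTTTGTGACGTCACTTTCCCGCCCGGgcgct
Hist1h4a, proximal (minus strand, chr13:23761260-23761296): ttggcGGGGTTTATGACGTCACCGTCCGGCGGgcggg
Hist1h4h (plus strand, chr13:23530961-23530995): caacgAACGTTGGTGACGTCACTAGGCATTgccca

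Hist1h4h carried TGACGTCA in addition to GGTCCG and had both covered in both replicates. The letters TGACGTCA were present in 2.43% of all promoters, and over all open promoters they were covered at 83.0% of matches in replicate 1 and 69.8% in replicate 2, so coverage of this element was common wherever it occurred. TATAAA was found in 7 of 13 H4 genes, against 55.2% of all histone promoters and 12.7% of all promoters. It was covered in both replicates at 3 of 6 matches in open H4 promoters, against 4.94% of matches over all open promoters. In the other types the count was 1 of 3 matches for H1, 2 of 9 for H2A, 1 of 9 for H2B and none of 6 for H3. Footprints shared by the replicates numbered 32 at H4 genes, at 12 of the 13, with a median length of 20.5 bases.

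**Figure D2:**
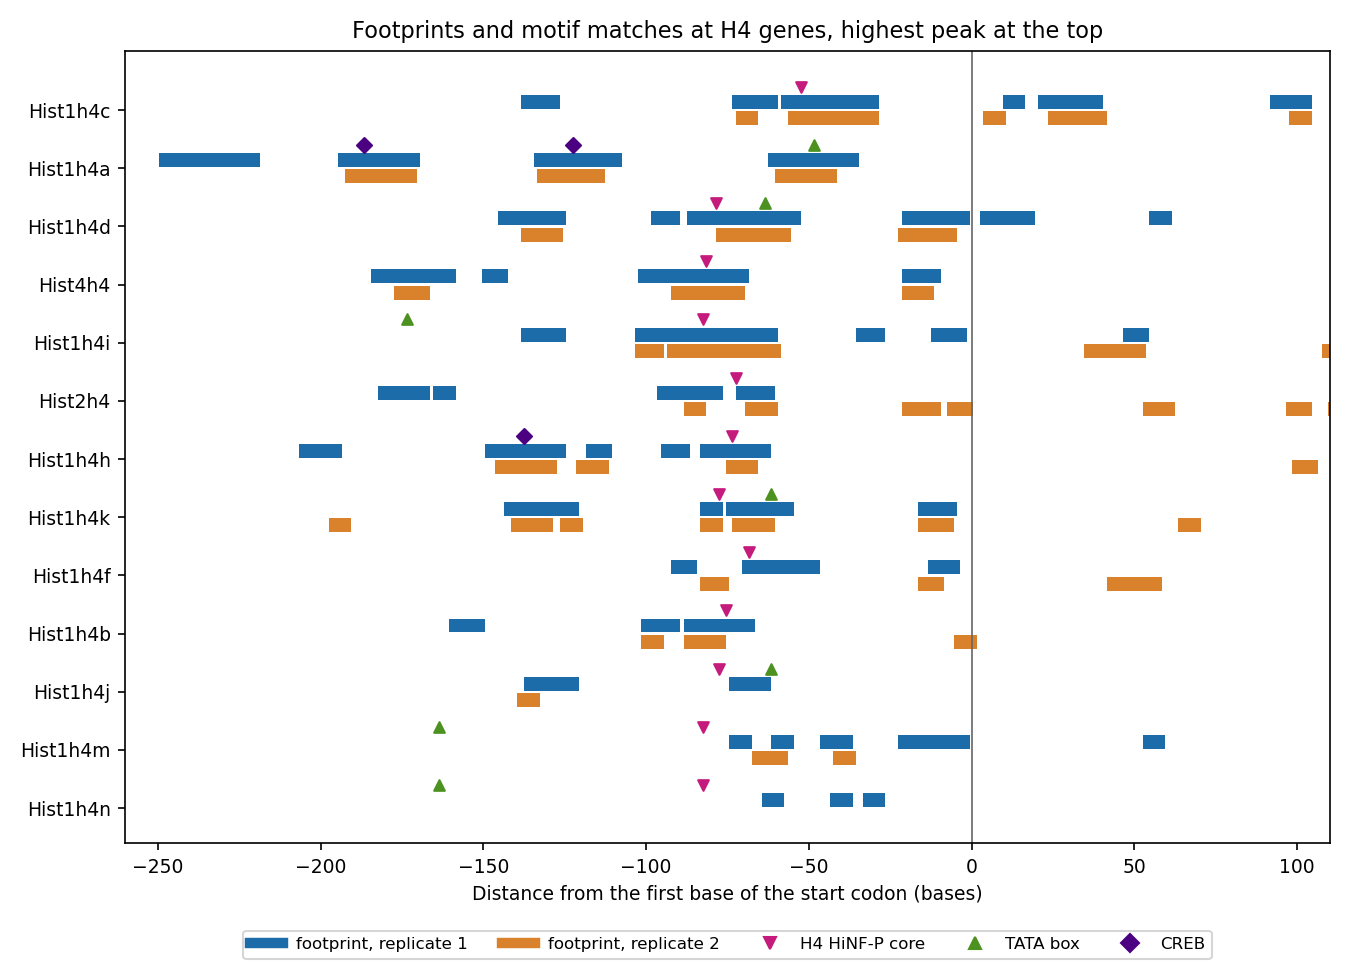
Footprints at the 13 H4 genes, highest mean peak at the top, by distance from the first base of the start codon (x axis, bases), with replicate 1 in blue and replicate 2 in orange. Symbols mark matches to the HiNF-P core, the TATA box and the CREB element. The HiNF-P core lies 52.5 to 82.5 bases before the start codon in 12 genes and sits on a footprint of both replicates in 7.

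H2A and H2B, which pair as a dimer on the nucleosome, are largely encoded by divergent gene pairs. Of the 18 H2A and 18 H2B genes, 12 of each formed head-to-head pairs whose starts lay within 1000 bp, so that the same peak lay in both windows and their values are not separate. At 9 of the 12 pairs both replicates had a peak between the starts, and at the other 3 neither did. Hist1h2an and Hist1h2bp shared a peak of 5.18 in replicate 1 and 1.73 in replicate 2. Hist1h2bf and Hist1h2ad shared one of 3.91 and 1.87. Hist2h2ac and Hist2h2be had the same highest peak as each other within each replicate, at 3.55 and 1.82. So did Hist1h2ag and Hist1h2bj, at 3.91 and 1.38. In these last pairs, however, the highest peak of replicate 1 did not overlap that of replicate 2. Between the starts of Hist2h2ac and Hist2h2be the highest peak of replicate 2 had 1.73. All pairs named here were below the median of all open genes in both replicates, apart from Hist1h2an and Hist1h2bp in replicate 1.

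Among genes outside pairs, Hist2h2aa2 was the highest H2A gene with 6.42 and 4.27, and its near copy Hist2h2aa1 had 3.09 and 3.15. These windows share 66.1% of their words of 36 bases, so the split of reads between them is uncertain. Hist2h2bb had 3.65 and 3.09, Hist3h2a 3.37 and 2.27, Hist3h2ba 2.11 and 2.56, and Hist2h2ab 2.17 and 2.71. Over the type, open H2A promoters had a median of 3.10 in replicate 1 and 1.87 in replicate 2, and open H2B promoters 2.43 and 1.84. Hist1h2ab was the lowest in replicate 1, at 0.508, and had 1.31 in replicate 2, where Hist1h2af (0.914) and Hist1h2bm (1.08) were lower, and its ratio of replicate 2 to replicate 1 stood at the 99.9th percentile of all open genes. The annotated start of Hist1h2be lies 35168 bp from its start codon, beside Hist1h1e, and had 1.09 and 1.68, while the window around the start codon had 1.51 and 1.24.

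The CCAAT box, bound by NF-Y, was a sequence feature present in all of these promoters, though not in them alone. The letters CCAAT occurred at least 2 times in all 36 H2A and H2B promoters, against 12.7% of all promoters. At least 1 match was present in 11 of 12 H3, 5 of 6 H1 and 4 of 13 H4 promoters, against 39.0% of all promoters. The octamer ATTTGCAT, recognised by Oct-1, was found in 8 H2B and 7 H2A promoters and in no H1, H3 or H4 promoter, against 1.57% of all promoters. The E2F letters TTTCGCGC or TTTGGCGC were found in 5 H2A and 4 H2B promoters, against 1.02%. Genes of a pair share most of this sequence, so these counts hold fewer separate promoters than genes. The stretches between the starts of 3 pairs are given below, on the plus strand of GRCm38: 1 with an octamer, 1 without, and 1 from a duplicated pair that had no peak. Capitals mark the CCAAT box, the TATA box and the octamer on either strand.
Hist2h2ac and Hist2h2be (chr3:96220881-96221118): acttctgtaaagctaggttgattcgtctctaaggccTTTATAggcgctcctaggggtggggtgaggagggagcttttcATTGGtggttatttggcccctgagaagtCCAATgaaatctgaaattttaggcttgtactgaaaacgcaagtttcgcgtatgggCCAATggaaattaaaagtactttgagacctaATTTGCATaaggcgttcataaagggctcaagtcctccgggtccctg
Hist1h2bf and Hist1h2ad (chr13:23574197-23574380): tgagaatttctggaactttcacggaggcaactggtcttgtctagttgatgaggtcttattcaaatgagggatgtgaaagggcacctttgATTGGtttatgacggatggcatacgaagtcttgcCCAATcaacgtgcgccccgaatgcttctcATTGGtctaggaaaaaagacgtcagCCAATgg
Hist1h2ap and Hist1h2br (chr13:21833508-21833742): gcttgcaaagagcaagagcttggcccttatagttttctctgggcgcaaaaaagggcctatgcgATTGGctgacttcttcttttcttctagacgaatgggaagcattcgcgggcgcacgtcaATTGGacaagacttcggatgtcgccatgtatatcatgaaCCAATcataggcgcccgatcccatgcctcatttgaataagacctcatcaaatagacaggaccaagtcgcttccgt

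Coverage by footprints differed between these elements. In open H2A promoters 11 of 38 CCAAT matches were covered in replicate 1 and 5 in replicate 2, and in open H2B promoters 10 of 46 and 3. Over all open promoters 15.7% and 7.40% of CCAAT matches were covered. Of 12 octamer matches in open histone promoters, 1 was covered in replicate 1 and none in replicate 2, where over all open promoters 1.07% and 2.14% of matches were covered. The E2F letters were covered at 5 of 9 matches in replicate 1 and at 3 in both replicates, against 31.5% and 13.8% of matches over all open promoters. The 3 were the element shared by Hist1h2ah and Hist1h2bk, counted once for each gene, and that of Hist1h2af.

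H3 genes had open promoters of modest height. All 9 H3 genes of Hist1 were open, and their medians were 2.84 in replicate 1 and 1.60 in replicate 2. Hist1h3e was the highest at 5.11 and 4.01, the H3 gene that stood above the median of all open genes in both replicates. Hist1h3b had 4.95 and 1.60, a fall across the replicates that only 0.553% of open genes exceeded, and Hist1h3h had 3.54 and 2.43. Hist2h3b, the open H3 gene of Hist2, had 2.26 and 1.59. CCAAT was present in 11 of 12 H3 promoters, against 39.0% of all promoters. In open H3 promoters 7 of 25 matches were covered in replicate 1 and none in replicate 2. The 200 bases before the start of Hist1h3e hold 4 of them, in capitals here, of which 3 were covered in replicate 1.
Hist1h3e (minus strand, chr13:23562370-23562569): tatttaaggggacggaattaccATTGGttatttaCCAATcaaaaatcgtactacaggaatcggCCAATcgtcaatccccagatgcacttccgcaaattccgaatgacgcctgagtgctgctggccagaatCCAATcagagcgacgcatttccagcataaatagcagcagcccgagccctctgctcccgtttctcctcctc

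H1 genes encode the linker histone that binds DNA where it enters and leaves the nucleosome, and all 6 lie in Hist1. Hist1h1c had a height of 3.08 in replicate 1 and 1.77 in replicate 2, Hist1h1e 2.86 and 2.69, Hist1h1a 2.28 and 1.79, and Hist1h1b 1.08 and 1.02. None of the 4 exceeded the median of all open genes in both replicates. Hist1h1t, which encodes the linker histone of male germ cells, had no peak in either replicate although every word of 36 bases in its window is found once in the assembly. Hist1h1d also had none at its annotated start, which lies 1828 bp before its start codon in DNA with a CpG ratio (observed over expected) of 0.115. At the start codon of Hist1h1d a shared peak was present, with heights of 2.17 and 1.86, so its closed call describes the annotated start and not the coding region.

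The open Hist1h1c and the closed Hist1h1t have similar elements before their starts, as the 200 bases of each show. Capitals mark the AC box, the CCAAT box and the GC box.
Hist1h1c (plus strand, chr13:23738608-23738807): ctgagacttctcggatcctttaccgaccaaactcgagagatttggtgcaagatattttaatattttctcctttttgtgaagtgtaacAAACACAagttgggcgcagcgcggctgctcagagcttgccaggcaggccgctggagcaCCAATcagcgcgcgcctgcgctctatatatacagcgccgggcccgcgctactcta
Hist1h1t (plus strand, chr13:23695614-23695813): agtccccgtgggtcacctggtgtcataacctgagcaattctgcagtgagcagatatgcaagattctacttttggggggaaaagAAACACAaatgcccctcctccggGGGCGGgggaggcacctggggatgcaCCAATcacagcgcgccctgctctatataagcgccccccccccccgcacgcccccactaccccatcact

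AAACACA was found in 4 of 6 H1 promoters, against 6.40% of all promoters, and none of the 3 matches in open H1 promoters was covered by a footprint in either replicate. Over all open promoters 4.39% and 2.28% of such matches were covered, so the 3 matches show nothing particular to H1. GGGCGG was found in 41.8% of histone promoters, near the 43.0% of all promoters. These letter counts did not separate the open H1 genes from Hist1h1t, whose CpG ratio within 500 bp of the start was 0.438, below the 0.629 to 0.884 of the 4 open ones.

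The 10 histone genes without a peak in either replicate fell into sets. Hist1h2bq, Hist1h2ao, Hist1h2ap and Hist1h2br are the members of a duplicated H2A and H2B pair in Hist1, and none of the words of 36 bases in their windows is found once in the assembly. Hist2h3c1 and Hist2h3c2 are near copies in Hist2, with 3.73% of such words. At these 6 genes a closed promoter and reads that could not be placed cannot be told apart. Hist1h2ba and Hist1h2aa, the pair that encodes the testis forms of H2B and H2A, had no peak although 83.5% and 96.3% of their words are found once. Hist1h1t and Hist1h1d, described above, complete the set. No interval of the deposited false discovery rate list (at most 0.05) lay in the window of any of the 10 in either replicate.

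Low calls and low uniqueness went together at the nearly duplicated genes. Of the 8 histone genes with under 5% unique words, 1 was open (Hist1h4m, at 1.01 and 0.602), and Hist1h4n, its near copy, had a peak of 0.711 in replicate 1 alone. Of the 9 with 5% to under 50%, 8 (88.9%) were open, and of the 50 with at least 50%, 44 (88.0%) were. The median share was 64.3% in histone windows and 100% over all protein-coding genes. How much of the heights rests on reads that fit several copies was not tested.

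**Figure D3:**
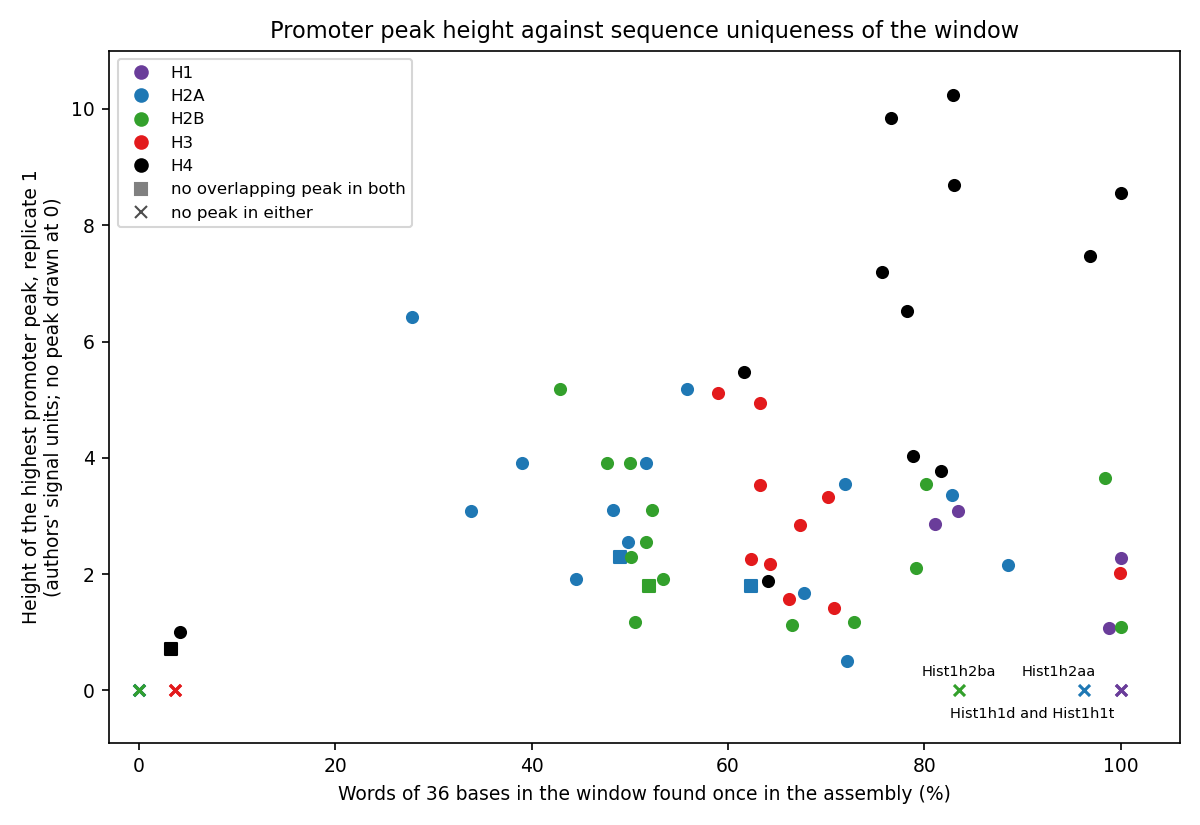
Height of the highest promoter peak in replicate 1 (y axis, the authors' signal units, with genes without a peak drawn at 0) against the share of words of 36 bases within 500 bp of the start that are found once in the assembly (x axis, %), colored by histone type. The 6 duplicated genes without a peak lie at 0% to 3.73%, and the 4 others without one lie at 83.5% to 100%.

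Along the Hist1 cluster the members fall into 4 groups separated by over 100 kb. The first group (chr13:21715763-21837530, mm10 coordinates throughout) had 11 of 18 genes open, with medians of 3.10 and 1.73, and it holds all the duplicated Hist1 genes without a peak. The second (chr13:22035164-22043676) had 5 of 5 open, with Hist1h4i as its highest gene. The third (chr13:23531050-23764406) had 26 of 29 open and holds the 3 highest promoters of replicate 1, Hist1h4c, Hist1h4a and Hist1h4d, of which Hist1h4c was the highest in replicate 2 as well. The fourth (chr13:23933773-23934851) is the testis pair alone, with neither open. Hist2 (chr3:96219865-96270132) had open medians of 3.55 and 2.90, against 2.97 and 1.78 in Hist1. A high and a low promoter could lie side by side within a group: the neighbor of Hist1h4a (9.85 and 4.14) is Hist1h3a, which had 1.41 and 1.16.

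**Figure D4:**
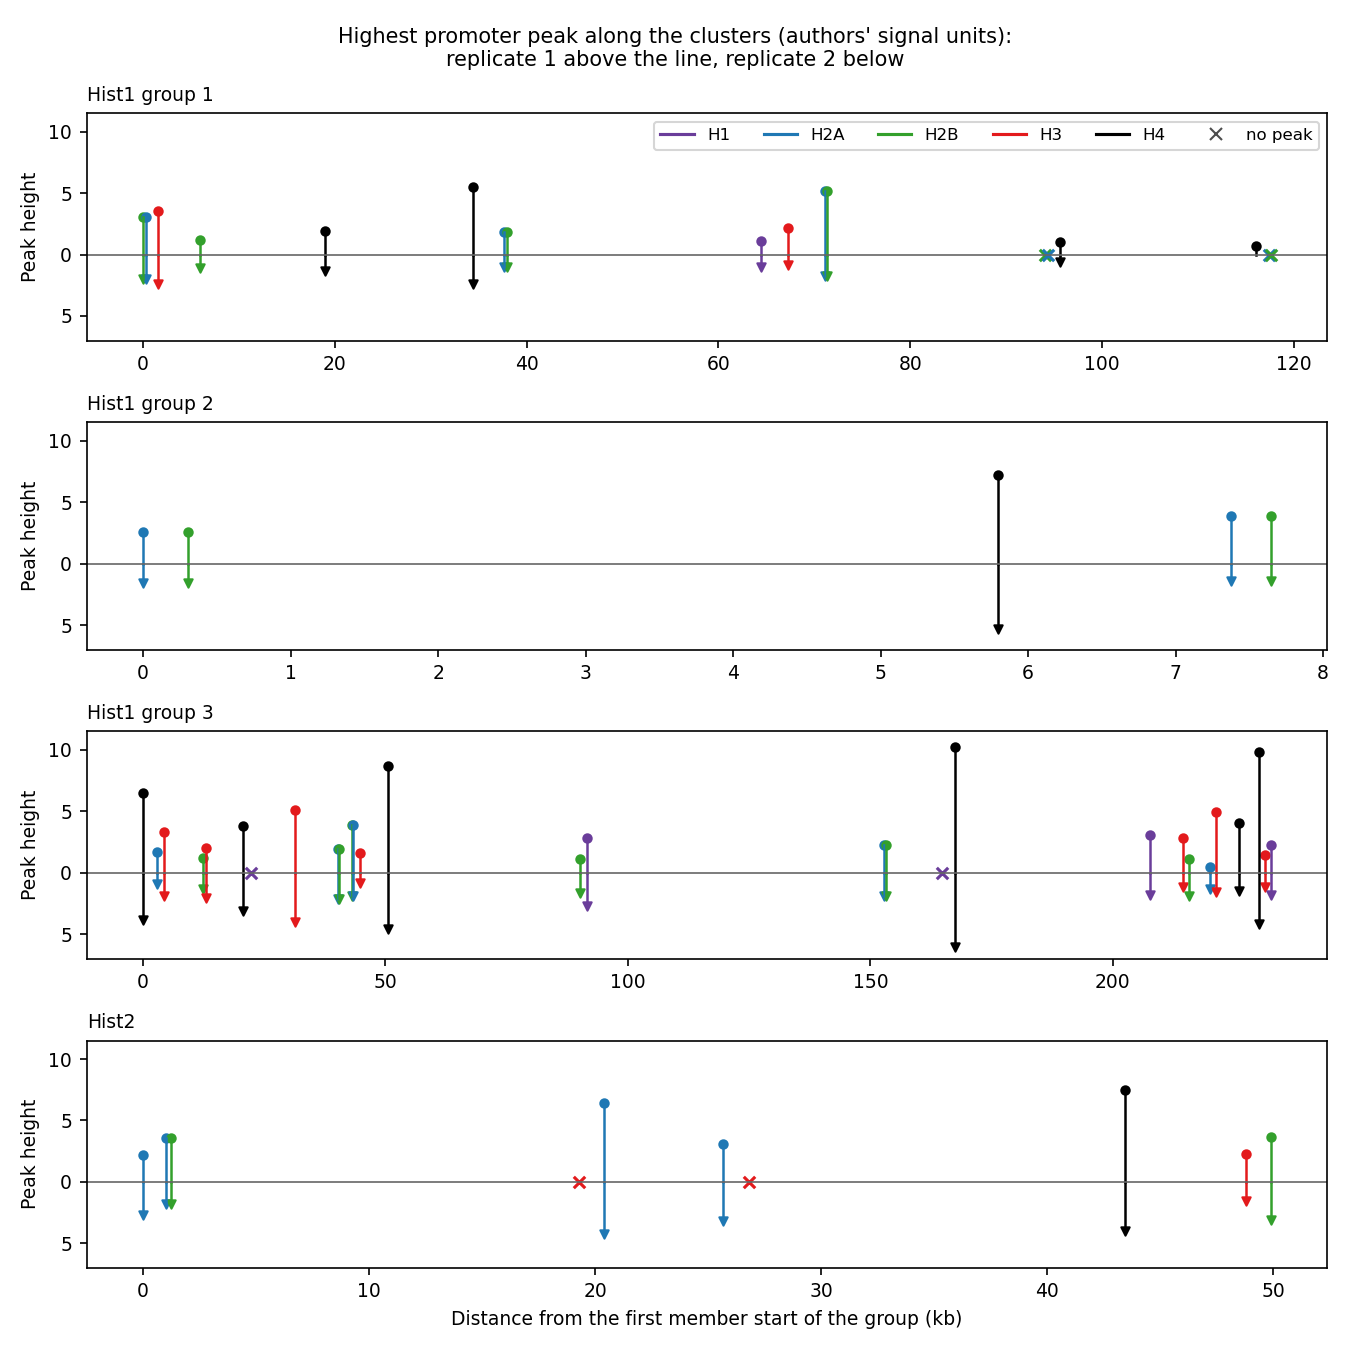
Height of the highest promoter peak along 3 groups of Hist1 and along Hist2 (x axis, kb from the first member start of the group), with replicate 1 drawn upward and replicate 2 downward from the line in the authors' signal units and crosses for genes without a peak. In replicate 1 the tallest lines are at Hist1h4c, Hist1h4a and Hist1h4d in the third group; in replicate 2 Hist1h4c (6.05) and Hist1h4i (5.32) are.

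Among genes that were not open in both replicates, 3 had peaks that did not overlap. Hist1h2ak and Hist1h2bn, a divergent pair, had 1.80 in replicate 1 and 1.01 in replicate 2, and Hist1h2ac had 2.29 and 1.91. Without the demand for overlap, 56 histone genes had a peak in each replicate (83.6%), against 57.9% of all genes.

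The highest peak also sat at different places in the replicates. Measured from the start codon at the 52 open genes where that lies within 500 bp of the start, the centre of the highest peak was upstream in all 52 in replicate 1, at a median of -83 bases, and in 27 of 52 in replicate 2, at a median of -3.50. Measured from the start at genes with a single annotated start, the centre moved downstream from replicate 1 to replicate 2 by a median of 50 bases in 51 histone genes and by 20 in 3608 open genes. The highest peaks of the replicates overlapped at 84.3% of these histone genes and at 95.1% of all such genes. The centre moved downstream in 60.3% of all such open genes. It did so in all 4 open H1 genes, all 10 open H3 genes and 11 of 12 H4 genes. For H2B it did so in 8 of 12 genes (66.7%) and for H2A in 8 of 13 (61.5%). Where the genes of a divergent pair had the same highest peak, a move downstream for either gene was a move upstream for its partner. The H2A and H2B shares are thus partly fixed by the pairing and cannot be set against those of the other types. Replicate 2 had the wider highest peaks, with medians of 300 bases against 220 in replicate 1, both in histone genes and in all open genes. The part of peak width and library depth in the displacement was not tested.

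**Figure D5:**
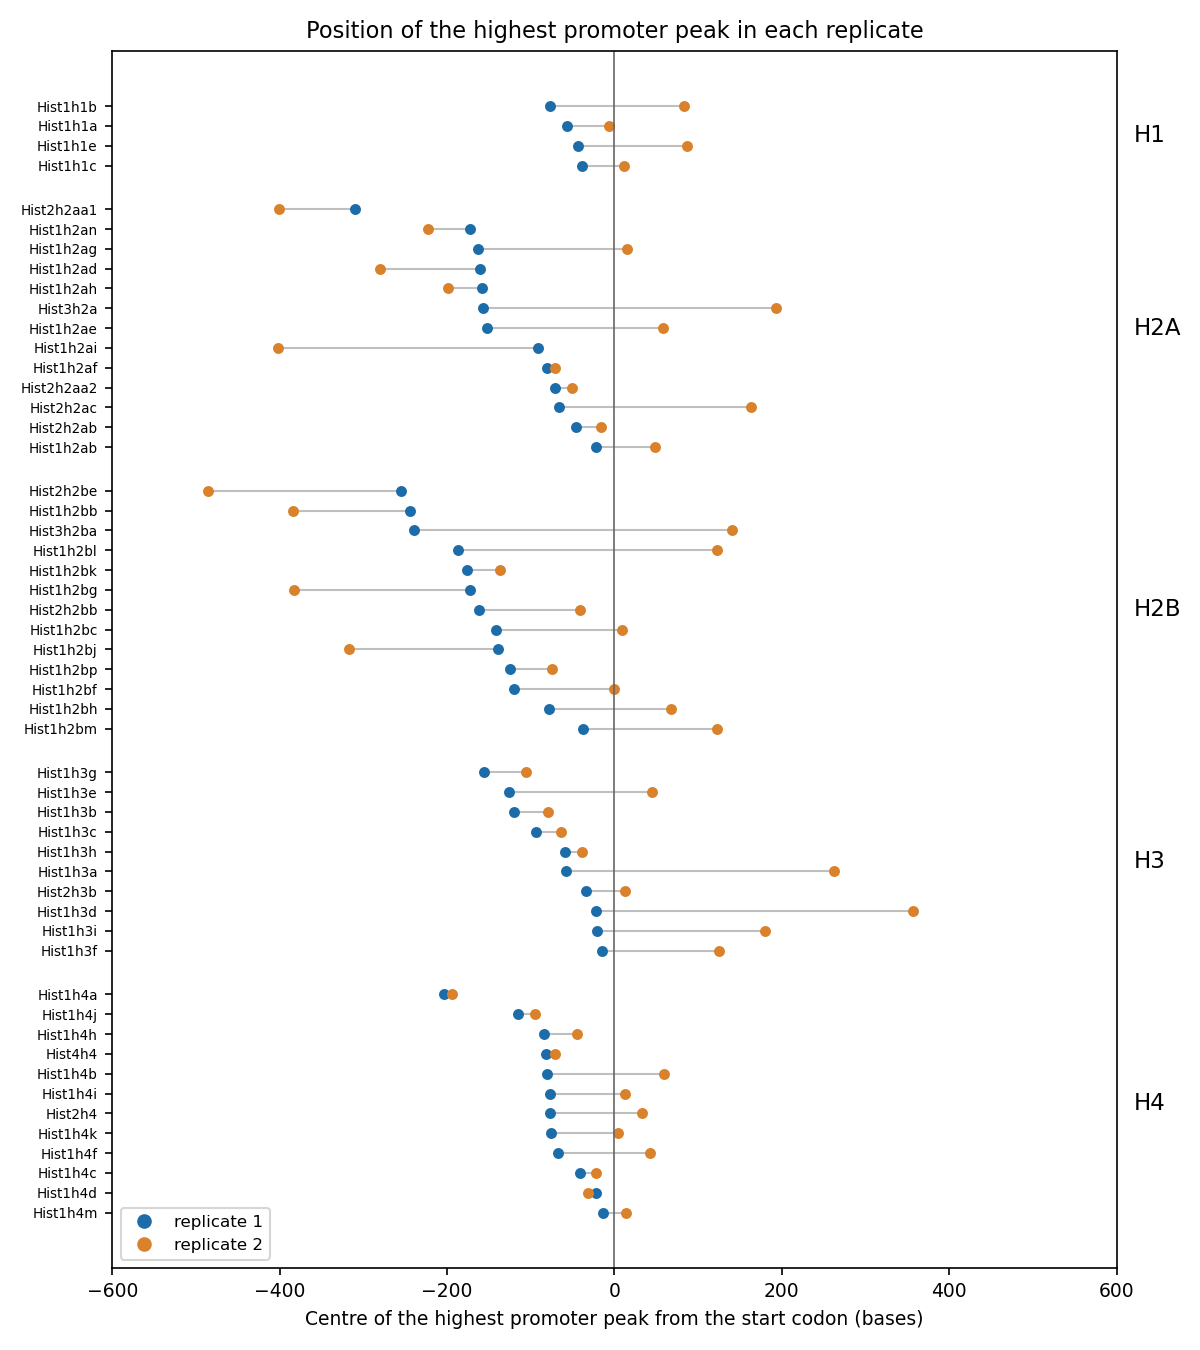
Centre of the highest promoter peak relative to the start codon (x axis, bases, negative is upstream) at 52 open histone genes by type, replicate 1 in blue and replicate 2 in orange. All 52 blue points lie upstream, with a median of -83 bases, and 27 of 52 orange points do.

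Footprints were found within 500 bp of the start in both replicates at 55 of 67 histone genes (82.1%), against 55.1% of all protein-coding genes. Among open genes the number per gene had medians of 5 in replicate 1 and 4 in replicate 2, both in histone genes and in all genes. These counts were taken over all annotated starts. Only 3608 of the 12484 open genes had a single start, and nearly all histone genes did. The equal medians thus cover unequal lengths and do not compare promoters one to one. Hist3h2a had the most in replicate 1, with 10, and 8 in replicate 2, but none of the 10 overlapped any of the 8. After merging, 83 overlapping footprints of the replicates were counted at 42 genes, or 74 distinct positions since divergent genes share some, and 71 of the 83 lay upstream of the start codon. Of the 83, 48 touched none of the motifs searched. Some of these 48 lay outside the stretch searched for motifs, from 250 bases before to 50 after a start, and could not touch any.

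Genes for the machinery that makes and processes histone mRNA had higher median promoters than the histone genes as a whole, though not than the H4 genes (6.86 and 3.94). All 16 in the list of transcription and 3′ end factors were open, against 57.1% of all protein-coding genes, with medians of 6.34 in replicate 1 and 3.67 in replicate 2. The heights in these lists, too, are the highest over all annotated starts of a gene. Nfya, a subunit of the CCAAT factor, had 10.7 and 6.90, Lsm11, a protein of the U7 particle that cleaves histone transcripts, 9.07 and 5.99, and Cpsf3, the cleavage enzyme, 9.89 and 3.86. Npat had 9.47 and 4.27, Hinfp 7.11 and 3.83, and Slbp, which binds the stem-loop, 5.01 and 3.63. All 15 histone chaperone genes were open, against the same 57.1%, with medians of 5.45 and 2.98, led by Nap1l1 (8.41 and 5.14), Nap1l4 (7.21 and 6.13) and Daxx (8.27 and 3.38).

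Replication-independent histone genes, which supply histones outside S phase, were open at 11 of 14 (78.6%), against 57.1% of all protein-coding genes. Their medians were 6.71 and 3.70. H2afv had 9.62 and 4.89, H2afj 8.56 and 3.80, and H1f0, the linker histone of resting cells, 7.48 and 4.67. H1fnt, H1foo and Hils1, linker histones of germ cells, had no peak in either replicate. H3f3a, which encodes the replacement form of H3, had 6.79 and 3.94, above every replication-dependent H3 gene in replicate 1 and below Hist1h3e in replicate 2. The other H3f3 gene of the list, H3f3b, had 4.56 and 2.97, below Hist1h3e in both replicates. The dividing-cell markers had medians of 4.68 and 2.44, with Kif11 at 8.56 and 5.07, Ccna2 at 8.78 and 3.89, Birc5 at 6.46 and 3.42 and Top2a at 5.71 and 3.68.

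At the other end of the gene, the stem-loop that replaces the poly(A) tail was searched in the 150 bases after the stop codon, on the coding strand. The consensus, a stem that opens with GGCTCT, a loop of TTTN and the reverse complement of the stem, was found in 51 of 67 genes: 6 of 6 H1, 17 of 18 H2A, 17 of 18 H2B, 11 of 12 H3 and none of 13 H4. A looser form of the same length, whose stem opens with GG and ends with T and has any letters between, added 12 of the 13 H4 genes; the remaining H4 gene had neither. The most frequent form of each is shown, with the stem-loop in capitals.
Hist1h1c: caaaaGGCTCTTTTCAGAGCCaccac
Hist1h4c: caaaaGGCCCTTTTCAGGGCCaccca

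The form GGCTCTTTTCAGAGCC was present in 41 genes and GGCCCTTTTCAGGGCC in 8, all of them H4. The stem-loop began 22 to 59 bases after the stop codon, with a median of 31. Hist2h2be, Hist1h2an, Hist1h3g and Hist1h4a had neither pattern, and all 4 were open. The duplicated genes without a peak all carried the consensus.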

How the data were processed

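DNase-seq peak lists, footprints and false discovery rates of 2 replicates from the hippocampus of mice were used as the authors deposited them, called for each sample separately on mm10 per the labels. For aligner, callers, thresholds and depth the sources used here give nothing. Peak height is a signal value in the authors' deposited lists, and its scaling is not stated, so genes were compared within each replicate. Means and ratios of the replicates serve only to order genes and to place a gene's ratio among those of all open genes. The false discovery rates were read as q-values per interval, as the authors deposited them, and reach at most 0.05. Every deposited footprint has the same p-value, 0.01, so footprints were not ranked.

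The longer peak list of each sample was used with GENCODE M21 protein-coding genes (those with a protein-coding transcript) and the GRCm38 genome. A promoter was open where peaks of both replicates overlapped by at least 1 bp within 500 bp of a start. Differences of height are log2 ratios of medians. Motifs were matched exactly on both strands from 250 bases before to 50 after a gene's 5′ end, with matches of different motifs allowed to overlap. They counted as covered when footprints held at least 50% of their bases. Words of 36 and 76 bases were counted over the whole assembly. Scripts used Python 3.11.15, NumPy 2.4.6 and matplotlib 3.10.9, and overlap and word counting were tested on simulated data. Genes are not replicates, so no test was run. The members, lists, motifs and rules were chosen with earlier results of these data known. Every member could be named, and values were given for the 3 highest open members of each cluster and type, those open in 1 replicate, all of Hist2, Hist3 and Hist4, and from other lists the 3 highest and up to 3 without a peak; further genes were picked by their values. Alternatives were the stricter list, other windows, overlap, starts, leaving out a replicate, unique windows and each peak counted once.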

Additional observations from a re-analysis of the deposited data

How the results depend on the processing

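No paired analysis was possible because the series has only 1 group. The count of 53 open histone genes was within 1.5 times of its value under every alternative run but 1: with 50% reciprocal overlap of the replicates' peaks it was 28, or 41.8% against 43.8% of all genes. Without replicate 2 there were 57 open histone genes (85.1%), against 63.4% of all genes, and 57 with footprints (85.1%), against 61.4%. Without replicate 1 there were 56 open (83.6%), against 58.5%, and 55 with footprints (82.1%), against 55.9%. The height of histone promoters relative to all open promoters (log2, -0.39) stayed negative. It was -0.45 with the stricter list, -0.14 in a window of 2000 bp, -0.49 with reciprocal overlap, -0.40 for members with at least 50% unique words, -0.34 with each peak counted once, and -0.38 to -0.25 when a replicate was left out. The height of H4 relative to the other types (1.19) was 0.95 in a window of 2000 bp, 1.32 with reciprocal overlap, 1.42 for unique members and 1.13 to 1.35 when a replicate was left out. Alternatives chosen after seeing the data gave -0.33 with the start codon in place of the start, -0.39 without required overlap and, for H4, 1.31 with each peak counted once. The cause of these shifts was not tested. With 2 replicates and depth unknown, no interval could be given for any height, and no result here carries a p-value. Footprints have no score, so weak ones could not be left out.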

Other observations

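The histone clusters also hold shared peaks away from member starts. Within the spans of the groups and 10 kb on either side, 85 shared peaks were counted: 53 at member starts, 2 at starts of other protein-coding genes (Rnf187 and H2afj) and 30 elsewhere. Of the 30, 7 overlapped an exon of a histone gene and 12 lay outside every annotated gene. The highest of them, chr13:23526461-23526660 in mm10, had heights of 6.82 in replicate 1 and 3.89 in replicate 2, stood outside annotated genes 4390 bp from the start of Hist1h4h, and was above the promoter of that gene in both replicates. Others were a peak of 5.26 and 2.50 in the transcript Gm11292 beside the second Hist1 group, one of 4.70 and 2.84 in the lincRNA Gm42743 beside Hist2, and one of 4.66 and 2.57 outside annotated genes, 5943 bp from Hist1h2bl. In the annotated exon of Hist1h1c, past its stem-loop, stood a peak of 4.27 and 2.30, higher in both replicates than that at its start (3.08 and 1.77). The peaks named here were picked by their values.

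The windows of the 67 histone genes had a median CpG ratio (observed over expected) of 0.879 and a GC content of 53.7%, against 0.552 and 54.7% in all protein-coding genes and 0.730 and 58.8% in the open ones. The near copies Hist1h4m and Hist1h4n share 95.8% of their words of 36 bases, and had peaks of 1.01 and 0.711 in replicate 1.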
